A study of Mus musculus with 16 samples.

Results

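The 10 genes described here encode the liver enzymes of choline oxidation and the methionine cycle. They were chosen by gene symbol (Chdh, Bhmt, Bhmt2, Mat1a, Pemt, Gnmt, Ahcy, Cbs, Dmgdh and Sardh), all 10 were found among the 24082 genes of the table, and all 10 passed the filter on low values. Liver RNA from 16 female C57BL6/J mice, 9 to 11 weeks of age, was sequenced, with 4 mice in each group. Mice received a Lieber-DeCarli liquid diet for 25 days, either with ethanol raised to a final 6% (vol/vol) or as an ethanol-free diet fed in matched amounts. Within each diet, 1 group received iodomethylcholine (IMC, 0.06% wt/wt in the diet), a small molecule inhibitor of the gut bacterial enzyme that converts choline to trimethylamine, and the other received vehicle. The groups are called Pair vehicle, Pair IMC, EtOH vehicle and EtOH IMC. The study describes lower food intake and body weight in mice given IMC together with ethanol, so that a lower intake of ethanol and nutrients cannot be told apart from IMC in EtOH IMC. A figure legend of the study also marks a difference in body weight between pair-fed mice with and without IMC. Body weight therefore cannot be told apart from IMC in Pair IMC either. The RNA is from whole liver, in which fewer hepatocytes and less RNA per hepatocyte cannot be told apart.

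In the liver, choline is oxidised in mitochondria to betaine, and betaine gives a methyl group to homocysteine to remake methionine. Methionine is activated to S-adenosylmethionine (SAM), the methyl donor of most methyltransferases, and the product S-adenosylhomocysteine (SAH) is cleaved to homocysteine, which is either remethylated or committed to cysteine by transsulfuration. The dimethylglycine left from betaine is stripped of its methyl groups by way of sarcosine to glycine, which feeds 1-carbon units into the folate pool. Gut bacteria that cleave choline draw on the same dietary choline as this host pathway.

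The libraries held 9632659 to 12601199 reads on genes. All values below are counts rescaled to 1 scale over the 16 libraries, since the deposited values were scaled within each diet and carried a difference of 0.19 (log2) between diets in the median gene, which the rescaling reduced to -0.001. Effects are log2 fold changes from limma over 12537 genes, with a Benjamini-Hochberg adjusted p under 0.05 taken as a change. Libraries 1 to 8 are Pair IMC and EtOH vehicle and libraries 9 to 16 are Pair vehicle and EtOH IMC. Each comparison of 2 groups by IMC or by ethanol is therefore also one between these sets of library numbers. These cannot be told apart, whereas the 2 averaged effects are balanced over these sets. All ethanol-fed libraries carry odd numbers and all pair-fed libraries even numbers. The ethanol effects, also the averaged one, therefore cannot be told apart from odd against even library numbers. Nothing in the labels says more about how the mice of a group were housed. A figure legend of the study gives diet intake by cage, with several mice in a cage. The cage of each sequenced mouse is not given, so mice of a group may have shared one. The tests treat each mouse as independent, and the limma p-values set a difference between groups against the spread between the mice within groups. Of 8 hepatocyte markers, the 7 in the table had summed rescaled counts of 933700 to 1758000 per library, and 5 kidney tubule markers, 2 of them at 0 throughout, summed to 0 to 7.735. Of 5 pancreas markers 3 were at 0 throughout (Cpa1, Cela3b and Pnlip), and the sums were 5.084 to 43.0 in Pair vehicle, 0 to 1.015 in Pair IMC, 0 to 18.15 in EtOH vehicle and 0 to 13.22 in EtOH IMC. The 1 pancreas marker tested, Ctrb1, was lower with IMC in pair-fed mice (-3.55, adjusted p = 0.0265), the comparison in which Bhmt2 was lower, and its part there was not tested. Markers of other cell types that changed in that comparison are given further below.

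Per kilobase of the longest coding transcript, the mean level over the 16 libraries was highest for Mat1a, at 15960 ± 2687 (SD) rescaled counts. Gnmt followed with 14510 ± 2778 and Bhmt with 13380 ± 7685 rescaled counts per kilobase, and these 3 neighbours lay within the spread over all 16 libraries, which pools the 4 groups. The order was not the same in each group: in EtOH vehicle Bhmt was the highest per kilobase, at 24340 ± 585.7 beside 18860 ± 2254 for Mat1a, and in EtOH IMC Bhmt was at 6765 ± 4276 beside 16590 ± 2325 for Mat1a. Ahcy was at 5469 ± 929.1 and Pemt at 3420 ± 474.1 on the same scale. Sardh was at 2288 ± 529.2 and Dmgdh at 2097 ± 485.8, closer to each other than their spread. The lowest levels per kilobase were those of Bhmt2 at 1138 ± 257.6, Cbs at 983.7 ± 149.9 and Chdh at 436 ± 52.93, of which Bhmt2 and Cbs lay within their spread of each other. Counted over all annotated exons, Bhmt fell to 5785 and Pemt moved from rank 5 to rank 7. Each member had at least 1753 reads in each library.

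**Figure D1:**
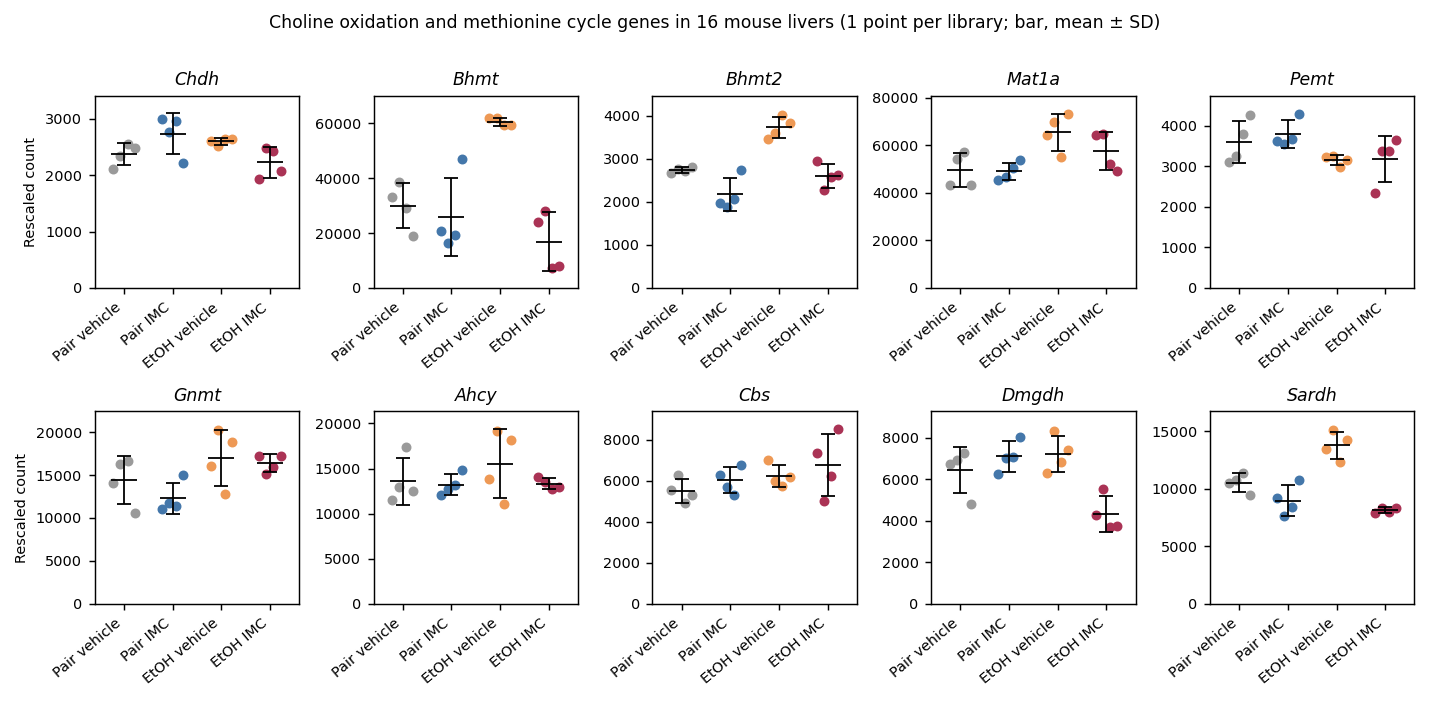
Rescaled counts (linear axis from 0) of the 10 genes in the 4 groups; each point is 1 library, and bars are the mean ± SD (n = 4). Bhmt lay between 59295 and 62012 in the 4 libraries of EtOH vehicle, above the other 12 libraries, and Dmgdh was lowest in EtOH IMC.

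In ethanol-fed mice 4 of the 10 genes (Bhmt, Bhmt2, Dmgdh and Sardh) were lower with IMC and none was higher, beside 21.5% of all genes tested that changed and 11.1% that were lower. In pair-fed mice 1 of the 10 was lower with IMC (Bhmt2) and none was higher, beside 9.48% of all genes changed and 5.17% lower. Averaged over both diets, the same 4 genes as in ethanol-fed mice were lower and none higher, beside 28.1% of all genes changed and 14% lower. For Dmgdh this average joins -0.76 in ethanol-fed and 0.15 in pair-fed mice, and it passed in 7 of 11 alternatives. The IMC effect differed between diets for 1 gene (Dmgdh, lower), beside 1.11% of all genes in either direction and 0.79% lower. The median log2 fold change of the 10 genes with IMC was -0.21 in ethanol-fed and -0.02 in pair-fed mice, where the median of all genes tested was -0.002 and -0.001.

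Ethanol in vehicle mice raised 2 of the 10 genes (Bhmt2 and Sardh) and lowered none, beside 11.9% of all genes changed and 6.33% higher. With the deposited scale 5 were higher and none lower, and with quantile normalization 1 was higher and none lower. Among IMC-treated mice, 1 gene (Dmgdh) was lower on the ethanol diet and none higher, beside 16.4% of all genes changed and 8.57% lower; with the deposited scale 3 were higher and 1 lower, with quantile normalization 1 and 1, and with DESeq2 1 and 2. Averaged over vehicle and IMC, 3 genes were higher with ethanol (Bhmt2, Gnmt and Mat1a) and none lower, beside 26.1% of all genes changed and 12.9% higher. Quantile normalization, DESeq2 and a filter for a mean of at least 100 each gave 3 higher and 1 lower. The deposited scale gave 6 higher and none lower, and no filter on low values gave 1 higher and none lower. The comparisons share groups: EtOH vehicle is the reference of IMC in ethanol-fed mice and also the ethanol group of the vehicle comparison, so a high value there enters both.

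The 4 values of 1 group lay wholly apart from those of the other for 5 of the 10 genes with IMC in ethanol-fed mice (beside 25.3% of all genes) and for none in pair-fed mice (beside 14.3%). With ethanol this held for 3 genes in vehicle mice (beside 19.0% of all genes) and for 2 in IMC-treated mice (beside 19.2%). Each of these 10 comparisons had an exact permutation p of 0.0286 (two-sided, unadjusted, of 40 comparisons), the smallest that 4 against 4 allow. This p follows from the separation itself and is not a second line of evidence.

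**Figure D2:**
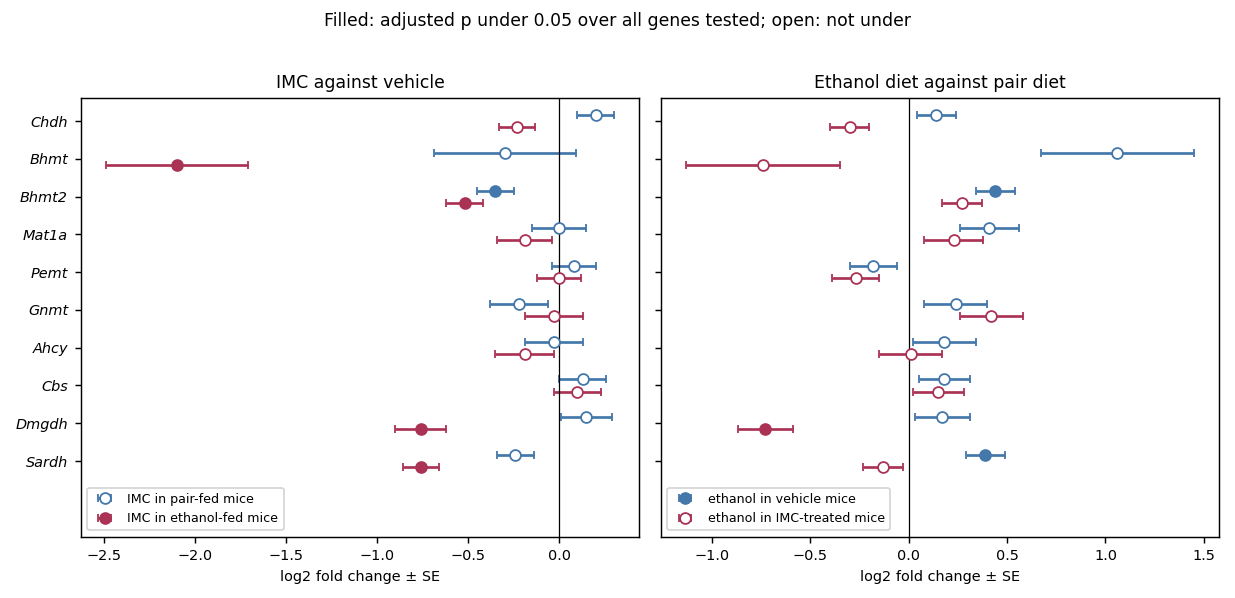
log2 fold changes ± SE (horizontal axis) of the 10 genes (rows) for IMC against vehicle in each diet and for the ethanol against the pair diet without and with IMC; filled points have an adjusted p under 0.05. Bhmt with IMC in ethanol-fed mice, at -2.10, lies farthest from 0.

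Chdh (ENSMUSG00000015970, chromosome 14, 30009023 to 30040527, plus strand, GRCm38) encodes the mitochondrial choline dehydrogenase that begins the oxidation of choline to betaine, and it passed the test in none of the comparisons. Its rescaled counts were 2116, 2337, 2556 and 2472 in Pair vehicle and 2989, 2768, 2966 and 2205 in Pair IMC. In EtOH vehicle they were 2607, 2512, 2637 and 2637, and in EtOH IMC 1928, 2480, 2418 and 2065. All 4 mice of EtOH IMC lay below the 4 of EtOH vehicle, whereas 3 of the 4 mice of Pair IMC lay above all of Pair vehicle and library 8 lay among them. The log2 fold change with IMC was -0.23 in ethanol-fed mice (SE 0.10, adjusted p = 0.114) and 0.20 in pair-fed mice (SE 0.10, adjusted p = 0.237), and the difference between them was -0.43 (SE 0.15, adjusted p = 0.16). Without library 8 the value in pair-fed mice was 0.30 (adjusted p = 0.049). With ethanol in IMC-treated mice it was -0.30 (SE 0.10, adjusted p = 0.0574), which became -0.39 with library 8 left out (adjusted p = 0.0121) and -0.35 with library 11 left out (adjusted p = 0.033). Chdh shares 589 exon bases with Cacna1d on the opposite strand, and 8.76% of its 100-base windows also occur there.

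Bhmt (ENSMUSG00000074768, chromosome 13, 93616675 to 93637961, minus strand) encodes betaine-homocysteine methyltransferase, which moves a methyl group from betaine to homocysteine. Its rescaled counts in EtOH vehicle were 62012, 61703, 59389 and 59295, and in EtOH IMC 24016, 27899, 7290 and 8175. No value of EtOH IMC reached the lowest of EtOH vehicle, and within EtOH IMC libraries 13 and 15 were lower than libraries 9 and 11. The mean was 60600 ± 1458 (SD, n = 4) in EtOH vehicle and 16845 ± 10647 (SD, n = 4) in EtOH IMC, and the log2 fold change of -2.10 (SE 0.39, adjusted p = 0.00127) corresponds to a 4.29-fold lower level. With each library left out in turn it ranged from -2.43 to -1.78, and in all 12 alternative settings from -2.15 to -1.61, always with an adjusted p under 0.05.

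In pair-fed mice the Bhmt counts were 32970, 38601, 29283 and 18953 with vehicle and 20601, 16494, 19208 and 47053 with IMC. These groups overlapped, since library 8 of Pair IMC was the highest of the 8 pair-fed libraries and library 16 of Pair vehicle was among the low values. The means were 29952 ± 8274 and 25839 ± 14245 (SD, n = 4), a log2 fold change of -0.30 (SE 0.39, adjusted p = 0.671) that became -0.63 with library 8 left out (adjusted p = 0.299). The difference of the IMC effect in ethanol-fed from that in pair-fed mice was -1.80 on the log2 scale (SE 0.55, adjusted p = 0.123) and did not pass the test. Averaged over the diets the log2 fold change was -1.20 (SE 0.27, adjusted p = 0.00365).

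With ethanol in vehicle mice the 4 Bhmt values of EtOH vehicle all lay above those of Pair vehicle. Such a separation by itself fixes the unadjusted exact permutation p at 0.0286. The log2 fold change of 1.06 (SE 0.39, adjusted p = 0.0817) did not pass the moderated test. It passed in 2 of 12 alternatives (adjusted p from 0.00973 to 0.121) and in none of the 16 fits that left out a library. In IMC-treated mice the log2 fold change was -0.74 (SE 0.39, adjusted p = 0.211). The spread of Bhmt differed between groups. The coefficient of variation was 2.4% in EtOH vehicle, 27.6% in Pair vehicle, 55.1% in Pair IMC and 63.2% in EtOH IMC, while limma uses 1 spread for the 4 groups. Of the 100-base windows of the Bhmt transcript, 41.95% also occur in the pseudogenes Gm5096 and Bhmt-ps1 or in Gm15622, which are not used here, so reads from these copies may be included.

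Bhmt2 (ENSMUSG00000042118, chromosome 13, 93655720 to 93674302, minus strand) encodes a relative of Bhmt that takes its methyl group from S-methylmethionine rather than from betaine. Its rescaled counts were 2663, 2749, 2705 and 2814 in Pair vehicle and 1973, 1886, 2067 and 2745 in Pair IMC. They were 3463, 3588, 4019 and 3821 in EtOH vehicle and 2951, 2277, 2566 and 2625 in EtOH IMC. The EtOH vehicle values all lay above the other 12, and in pair-fed mice library 8 of Pair IMC lay within the range of Pair vehicle while the other 3 lay below it. The log2 fold change with IMC was -0.52 in ethanol-fed mice (SE 0.10, adjusted p = 0.00238) and -0.35 in pair-fed mice (SE 0.10, adjusted p = 0.0433), with no difference that passed the test between them (-0.17, SE 0.15, adjusted p = 0.632). Averaged over the diets it was -0.43 (SE 0.07, adjusted p = 0.000397). The pair-fed call rested on the settings: it remained in 6 of 12 alternatives and in 5 of the 16 fits that left out a library (5, 8, 9, 11 or 15), with an adjusted p of 0.00285 without library 8 and 0.144 without library 4. Ethanol raised Bhmt2 in vehicle mice by 0.44 (SE 0.10, adjusted p = 0.0119), in all 12 alternatives and all 16 such fits, and by 0.36 (SE 0.07, adjusted p = 0.00202) averaged over vehicle and IMC. In IMC-treated mice the value was 0.27 (SE 0.10, adjusted p = 0.0817), and it was 0.39 without library 8 (adjusted p = 0.00789) and 0.34 without library 11 (adjusted p = 0.0407). The transcripts of Bhmt and Bhmt2 are 75.3% identical over 1094 aligned bases, and their longest identical run is 59 bases, shorter than the 100-base reads.

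Bhmt, Bhmt2 and Dmgdh are neighbours on chromosome 13. Bhmt2 ends 17.8 kb from the start of Bhmt, and Bhmt2 and Dmgdh are transcribed away from each other from starts 130 bases apart. The sequences upstream of these starts are shown because 3 of the 4 genes that fell with IMC in ethanol-fed mice lie here. They are from RefSeq on GRCm38.p6, where 9 of the 10 members matched an entry, and the motifs were chosen after the sequences were read. The first is chr13:93637962-93638008, minus strand, upstream of the Bhmt start in both RefSeq and GENCODE, with the letters AGGTCA in capitals, a half-site of nuclear receptors. The second is chr13:93674303-93674432, plus strand, the whole stretch between the Bhmt2 and Dmgdh starts, with the reverse complement of the GC box GGGCGG in capitals.
Bhmt: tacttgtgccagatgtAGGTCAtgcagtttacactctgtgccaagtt
Bhmt2-Dmgdh: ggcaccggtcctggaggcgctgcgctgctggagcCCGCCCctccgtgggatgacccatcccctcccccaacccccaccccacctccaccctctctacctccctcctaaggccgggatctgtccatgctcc

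The stretch between Bhmt2 and Dmgdh is 70.8% G and C. On either strand, the letters GGGCGG occur in 27.3% of the 130-base windows just upstream of the 32817 RefSeq starts. AGGTCA occurs 3 times in the 250 bases upstream of the RefSeq start of Bhmt, once in the stretch printed and 2 times in the 203 bases between the RefSeq and GENCODE starts. Of all 250-base upstream windows, 14.03% hold AGGTCA on either strand and 1.36% hold it at least 2 times. It also occurs once in the windows of Gnmt, Ahcy and Sardh, and in none of those of Chdh, Bhmt2, Pemt, Cbs and Dmgdh. GGGCGG is not particular to the Bhmt2 and Dmgdh starts. It occurs 2 times in the 250-base windows of Bhmt2, Cbs and the Chdh start at 30009000, and once in those of Ahcy and Dmgdh. Of all such windows 32.72% hold it. The letters CCAAT and TATAAA were also counted and are not marked. These matches describe letters and not bound sites.

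**Figure D3:**
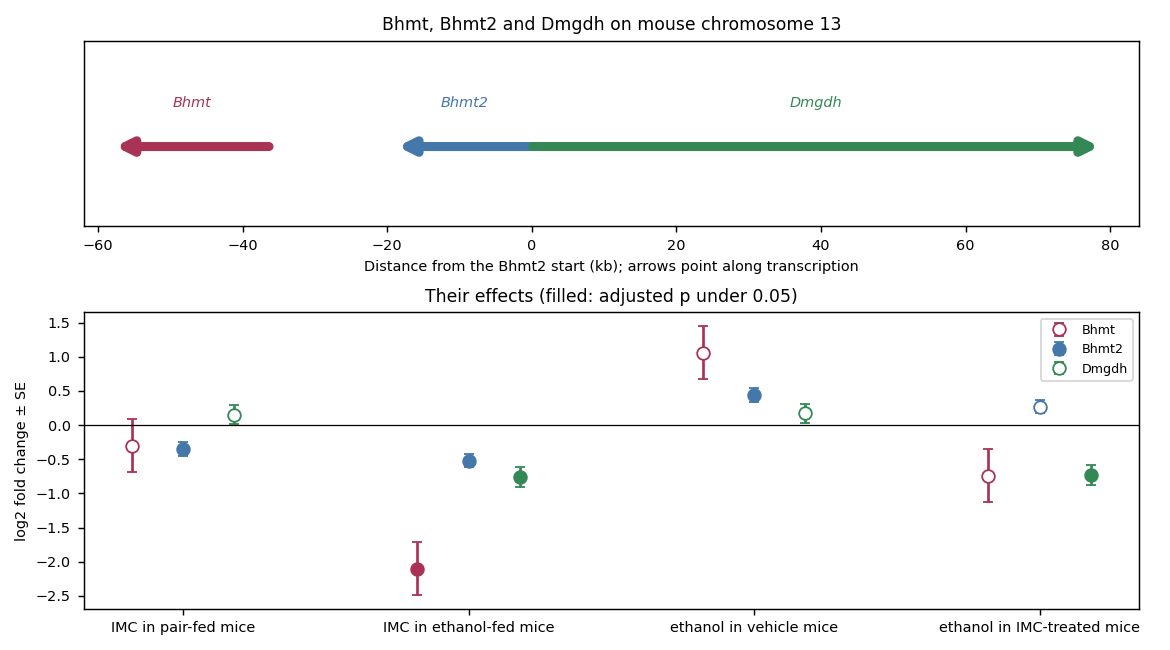
Top, the positions of Bhmt, Bhmt2 and Dmgdh as distance from the Bhmt2 start (kb), with arrows along transcription; bottom, their log2 fold changes ± SE in 4 comparisons, filled where the adjusted p is under 0.05. All 3 were lower with IMC in ethanol-fed mice, by log2 fold changes of -2.10, -0.52 and -0.76, whereas in pair-fed mice Dmgdh was at 0.15.

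Mat1a (ENSMUSG00000037798, chromosome 14, 41105035 to 41124412, plus strand) encodes the methionine adenosyltransferase of adult liver, which makes SAM. Its rescaled counts were 43342, 54001, 56992 and 43342 in Pair vehicle and 45296, 46804, 50219 and 53568 in Pair IMC. In EtOH vehicle they were 64264, 69626, 55005 and 72907, and in EtOH IMC 64457, 64508, 51930 and 49329. Ethanol-fed mice reached higher values than pair-fed mice, but the groups overlapped in each of the 4 comparisons. Averaged over vehicle and IMC, Mat1a was higher with ethanol by 0.32 (log2, SE 0.11, adjusted p = 0.0342). This call remained in 10 of 11 alternatives and in 6 of the 16 fits that left out a library (5, 8, 12, 13, 14 or 15), the adjusted p being 0.0714 without library 7. In vehicle mice alone the log2 fold change was 0.41 (SE 0.15, adjusted p = 0.0812), and it passed in 6 of 12 alternatives (adjusted p from 0.00787 to 0.225). With IMC it was 0.00 for the pair diet (SE 0.15, adjusted p = 0.989) and -0.19 for the ethanol diet (SE 0.15, adjusted p = 0.39).

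Pemt and Gnmt are 2 large users of SAM in the liver. Pemt (ENSMUSG00000000301, chromosome 11, 59970614 to 60046489, minus strand) methylates phosphatidylethanolamine to phosphatidylcholine, the route by which the liver makes choline groups itself. Its rescaled counts were 3107, 3247, 3789 and 4257 in Pair vehicle and 3623, 3558, 3677 and 4294 in Pair IMC. They were 3232, 3257, 2975 and 3143 in EtOH vehicle and 2347, 3371, 3375 and 3642 in EtOH IMC. The groups overlapped in each of the 4 comparisons by IMC or by ethanol, and Pemt passed no test. With IMC its log2 fold change was 0.08 for the pair diet (SE 0.12, adjusted p = 0.727) and 0.00 for the ethanol diet (SE 0.12, adjusted p = 0.984), and averaged over vehicle and IMC the ethanol value was -0.22 (SE 0.09, adjusted p = 0.069), or -0.26 without library 10 or 15 (adjusted p = 0.0458 and 0.0431).

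Gnmt (ENSMUSG00000002769, chromosome 17, 46725664 to 46729168, minus strand) encodes glycine N-methyltransferase, which uses up surplus SAM by making sarcosine from glycine. Its rescaled counts were 14122, 16347, 16669 and 10554 in Pair vehicle and 11054, 11707, 11366 and 14968 in Pair IMC. In EtOH vehicle they were 16019, 20233, 12810 and 18892, and in EtOH IMC 17278, 15105, 15929 and 17191. All 4 mice of EtOH IMC lay above the 4 of Pair IMC, whose highest, library 8, came close to the lowest of EtOH IMC. The ethanol log2 fold change averaged over vehicle and IMC was 0.33 (SE 0.11, adjusted p = 0.0361), and it passed the test in 9 of 11 alternatives and in 6 of the 16 fits that left out a library (1, 5, 8, 11, 12 or 14), with an adjusted p of 0.0763 without library 3. In IMC-treated mice it was 0.42 (SE 0.16, adjusted p = 0.0729), and the adjusted p was 0.044 without library 8 and 0.0408 without library 16. With IMC the log2 fold change was -0.22 in pair-fed mice (SE 0.16, adjusted p = 0.41) and -0.03 in ethanol-fed mice (SE 0.16, adjusted p = 0.901).

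Ahcy (ENSMUSG00000027597, chromosome 2, 155059310 to 155074497, minus strand) encodes the hydrolase that splits SAH, an inhibitor of methyltransferases, into adenosine and homocysteine. Its rescaled counts ranged from 11498 to 17417 in Pair vehicle, from 12061 to 14813 in Pair IMC, from 11051 to 19157 in EtOH vehicle and from 12698 to 14045 in EtOH IMC. The log2 fold change with IMC was -0.03 in pair-fed (adjusted p = 0.939) and -0.19 in ethanol-fed mice (adjusted p = 0.4), each with an SE of 0.16. With ethanol it was 0.18 in vehicle mice (adjusted p = 0.481) and 0.01 in IMC-treated mice (adjusted p = 0.962). Its reads are the least certain of the 10, since 72.09% of the 100-base windows of the transcript also occur in Gm4737 or Gm9826.

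Cbs (ENSMUSG00000024039, chromosome 17, 31608894 to 31637238, minus strand) encodes cystathionine beta-synthase, which commits homocysteine to transsulfuration. Its rescaled counts ranged from 4908 to 6279 in Pair vehicle, from 5320 to 6755 in Pair IMC, from 5734 to 6993 in EtOH vehicle and from 5018 to 8497 in EtOH IMC. With IMC its log2 fold change was 0.13 in pair-fed (adjusted p = 0.595) and 0.10 in ethanol-fed mice (adjusted p = 0.642), each with an SE of 0.13. With ethanol it was 0.18 in vehicle mice (adjusted p = 0.404) and 0.15 in IMC-treated mice (adjusted p = 0.476), and averaged over both it was 0.16 (adjusted p = 0.212), or 0.23 without library 11 (adjusted p = 0.043). Cbs and Ahcy overlapped between the groups in each of the 4 comparisons.

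Dmgdh (ENSMUSG00000042102, chromosome 13, 93674433 to 93752833, plus strand) encodes dimethylglycine dehydrogenase, a mitochondrial enzyme that turns the dimethylglycine left by Bhmt into sarcosine. Its rescaled counts in EtOH vehicle were 6302, 8342, 6847 and 7428, and in EtOH IMC 4257, 5550, 3703 and 3757. In pair-fed mice they were 6760, 6950, 7279 and 4813 with vehicle and 6258, 7006, 7091 and 8055 with IMC. All 4 mice of EtOH IMC lay below the mice of EtOH vehicle and of Pair IMC, and library 16 of Pair vehicle, at 4813, was the only other library within their range. With IMC in ethanol-fed mice Dmgdh fell from a mean of 7230 ± 873 (SD, n = 4) to one of 4317 ± 859, and the log2 fold change was -0.76 (SE 0.14, adjusted p = 0.00158). In pair-fed mice, at 6451 ± 1113 and 7102 ± 737 (SD, n = 4), it was 0.15 (SE 0.14, adjusted p = 0.547).

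The difference between these IMC effects of Dmgdh was -0.91 (SE 0.20, adjusted p = 0.0414). It passed the test in 7 of 11 alternatives and in 4 of the 16 fits that left out a library (2, 10, 11 or 14), with values from -1.03 to -0.77 and an adjusted p of 0.0882 without library 3. The IMC effect averaged over diets was -0.30 (SE 0.10, adjusted p = 0.0338). It passed in 7 of 11 alternatives and in 6 of those 16 fits (without library 1, 5, 8, 9, 11 or 16). With ethanol in IMC-treated mice Dmgdh was lower by a log2 fold change of -0.73 (SE 0.14, adjusted p = 0.00265), in all 12 alternatives and all 16 such fits, and in vehicle mice the value was 0.17 (SE 0.14, adjusted p = 0.454). Averaged over vehicle and IMC the ethanol value was -0.28 (SE 0.10, adjusted p = 0.0515), and it passed without library 2, 3, 11 or 16, with an adjusted p of 0.0108 without library 16. Dmgdh shares 215 exon bases with the antisense gene AW495222.

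Sardh (ENSMUSG00000009614, chromosome 2, 27188393 to 27248337, minus strand) encodes sarcosine dehydrogenase, which turns sarcosine from Dmgdh and Gnmt into glycine. Its rescaled counts in EtOH vehicle were 13436, 15107, 12353 and 14198, and in EtOH IMC 7857, 8362, 7991 and 8311. In pair-fed mice they were 10465, 10773, 11387 and 9432 with vehicle and 9147, 7612, 8393 and 10713 with IMC. EtOH vehicle lay above the other 12 libraries without overlap, and EtOH IMC was the group with the least spread. With IMC in ethanol-fed mice Sardh fell from a mean of 13773 ± 1168 (SD, n = 4) to one of 8130 ± 245, and the log2 fold change of -0.76 (SE 0.10, adjusted p = 0.000111) passed in each alternative and each fit without a library. In pair-fed mice, at 10514 ± 817 and 8966 ± 1322 (SD, n = 4), it was -0.24 (SE 0.10, adjusted p = 0.157), which became -0.33 with library 8 left out (adjusted p = 0.0417). The difference between diets was -0.52 (SE 0.15, adjusted p = 0.0991), and the average over diets -0.50 (SE 0.07, adjusted p = 0.000125). Ethanol raised Sardh in vehicle mice by 0.39 (SE 0.10, adjusted p = 0.0224) (log2), and the call was lost without library 3, 7 or 16, with an adjusted p of at most 0.0661 (without library 3). In IMC-treated mice the value was -0.13 (SE 0.10, adjusted p = 0.423).

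**Figure D4:**
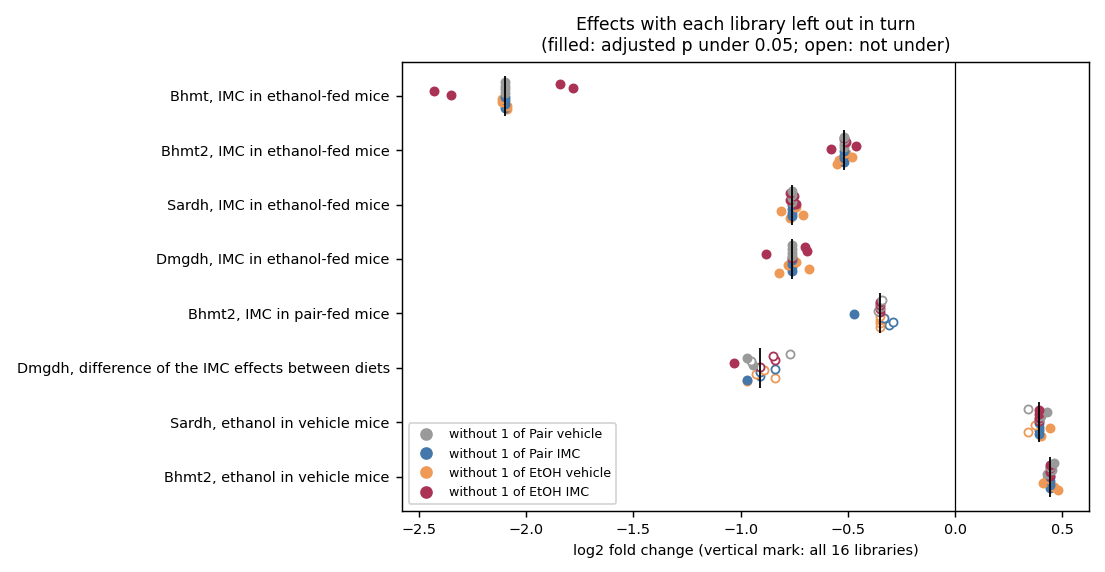
log2 fold changes (horizontal axis) of 8 effects of Bhmt, Bhmt2, Dmgdh and Sardh with each of the 16 libraries left out in turn, coloured by the group of the library left out; vertical marks show all 16 libraries and filled points an adjusted p under 0.05. The IMC effects in ethanol-fed mice and the ethanol effect on Bhmt2 in vehicle mice stayed filled. Bhmt2 with IMC in pair-fed mice, the Dmgdh difference and Sardh with ethanol in vehicle mice did not.

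The wider pathway was followed through 53 genes of choline entry, the folate cycle, glycine cleavage, other methyltransferases and polyamine and methionine salvage, of which 52 were tested. With IMC averaged over both diets 5 were higher and 23 lower, 53.8% of the list beside 28.1% of all genes, with a median log2 fold change of -0.16 where that of all genes was -0.006. In ethanol-fed mice 4 were higher and 19 lower (44.2% of the list beside 21.5% of all genes), and in pair-fed mice 1 was higher and 6 lower (13.5% beside 9.48%). Of the 16 genes of the methionine synthase and folate cycle group, 3 were higher with IMC averaged over diets and 7 lower, and of the 8 of glycine cleavage and sarcosine use 5 were lower and none higher. The only gene of transsulfuration listed beside Cbs, Cth, was at 0.01 with IMC.

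The largest falls in the wider list with IMC, averaged over diets, were those of Gamt (-0.88, SE 0.11, adjusted p = 3.98e-05), the guanidinoacetate methyltransferase of creatine synthesis and another large user of SAM, Slc25a48 (-0.68, SE 0.11), a mitochondrial carrier linked to choline, and Hnmt (-0.49, SE 0.10), which methylates histamine. Gamt had mean rescaled counts of 1660 in Pair vehicle, 972.5 in Pair IMC, 1187 in EtOH vehicle and 610.6 in EtOH IMC, so both its IMC and its ethanol effect were downward. The largest rises were those of 3 mitochondrial folate enzymes, Aldh1l2 (1.43, SE 0.27), Mthfd1l (1.43, SE 0.32) and Mthfd2 (0.71, SE 0.23). Their levels were low, with group means of 5.588 to 31.27 rescaled counts. The IMC effect differed between diets for 2 genes of the list, Amt (-0.79, SE 0.16) and Etfdh (-0.65, SE 0.12), 3.8% of the list beside 1.11% of all genes, and both are named because they are few and after their values were seen. That count was 1 without library 1, 2, 5, 8, 12, 13 or 14, 3 without library 10 or 11, 1 with no trend and 5 with DESeq2. Amt belongs to the glycine cleavage system, and Etfdh takes up electrons that Dmgdh and Sardh pass on through the electron transfer flavoprotein.

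With ethanol averaged over vehicle and IMC 12 of the 52 were higher and 10 lower, 42.3% beside 26.1% of all genes, with a median of 0.07 beside -0.003 for all genes. On the deposited scale the same contrast gave 26 higher and 5 lower. In vehicle mice alone 9 were higher and 4 lower with ethanol, 25% beside 11.9% of all genes (19 and 0 on the deposited scale). In IMC-treated mice 10 were higher and 10 lower, 38.5% beside 16.4% (17 and 6 on the deposited scale). The largest rises were Slc25a48 (1.07, SE 0.11), Nnmt (0.94, SE 0.21), which methylates nicotinamide, and Gldc (0.73, SE 0.09), the glycine decarboxylase. The largest falls were Slc25a32 (-0.58, SE 0.11), a mitochondrial folate carrier, Gamt (-0.56, SE 0.11) and Mtr (-0.47, SE 0.08), the methionine synthase that remethylates homocysteine from folate. Cth, the second enzyme of transsulfuration, was higher with ethanol by 0.53 (SE 0.12).

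**Figure D5:**
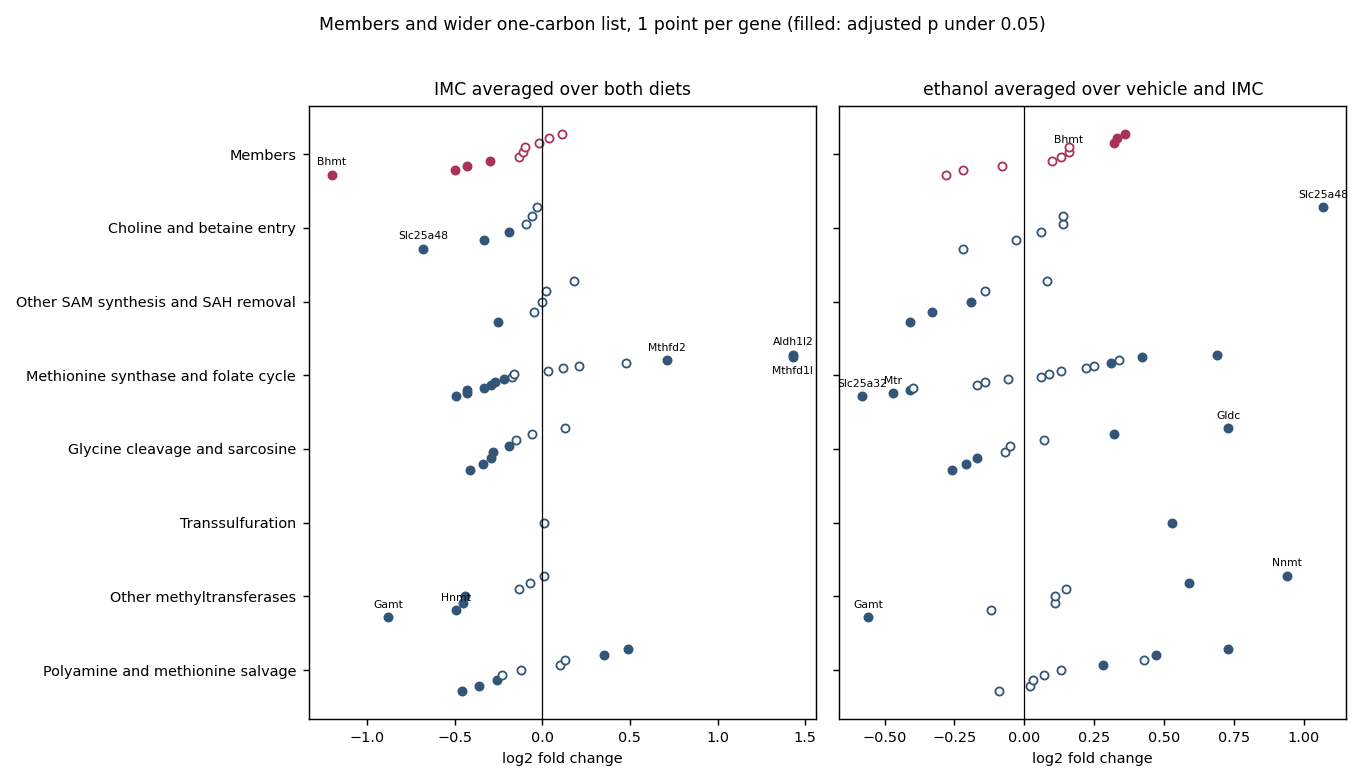
log2 fold changes (horizontal axis) of the 10 members and of the 52 tested genes of the wider list by group (rows), for the averaged IMC effect and the averaged ethanol effect; filled points have an adjusted p under 0.05. With IMC, Bhmt at -1.20 lies below all genes of the wider list.

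Markers of hepatocytes and of other cell types were read beside these results. Of the 7 hepatocyte markers in the table, 1 was higher (Hnf4a, log2 fold change 0.62) and none lower with IMC in ethanol-fed mice. Their sums, mostly Alb, were 996700 to 1136000 in EtOH vehicle and 933700 to 1249000 in EtOH IMC. Of 8 markers of pericentral hepatocytes 2 were lower and none higher with IMC in ethanol-fed mice, the comparison in which the 4 members fell. The 2 were Cyp2e1, with means of 49040 in EtOH vehicle and 29420 in EtOH IMC, and Oat (14940 and 6615). Cyp1a2 and Slc1a2 had log2 fold changes of 0.58 and 0.15 that did not pass. Those of Glul (-0.21), Lgr5 (-0.19), Axin2 (-0.23) and Rhbg (-0.67) did not pass either. Summed rescaled counts of the 8 markers were 74430 to 96840 in EtOH vehicle and 49880 to 73950 in EtOH IMC. Of 8 periportal markers 1 was higher and 2 lower, with sums of 79130 to 108100 and 90370 to 106700. Hsd17b13 was higher, with a log2 fold change of 0.76 and means of 4824 in EtOH vehicle and 8177 in EtOH IMC. Cyp2f2 (-1.38, means of 9273 and 3556) and Aldh1b1 (-0.44, means of 1944 and 1433) were lower. The other periportal markers did not pass. Of 7 stellate cell markers 4 were lower, with sums of 4709 to 5529 and 2989 to 3900. Of 4 red cell markers 3 were tested and 2 were lower, with sums of 119.4 to 328.9 and 48.13 to 124.3. None of 7 Kupffer cell and none of 7 endothelial markers passed the test for IMC in either diet. With IMC in pair-fed mice, where Bhmt2 was lower, the hepatocyte marker Hnf4a was higher (0.71, adjusted p = 0.00322). Besides Ctrb1, the markers that were lower there were Oat (-0.89, adjusted p = 0.0267), Aldh1b1 (-0.57, adjusted p = 0.013) and Krt7. Krt7, a bile duct marker, was at -1.52 (adjusted p = 0.0385), with means of 29.43 in Pair vehicle and 9.274 in Pair IMC. The part of these changes in the results on Bhmt, Bhmt2, Dmgdh and Sardh was not tested.

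With ethanol in vehicle mice, where Bhmt2 and Sardh rose, 3 of the 7 stellate cell markers were higher, with sums of 3308 to 4663 in Pair vehicle and 4709 to 5529 in EtOH vehicle. In the same comparison 2 periportal and 1 pericentral marker were higher, and 1 hepatocyte marker was lower. Averaged over vehicle and IMC, where Bhmt2, Gnmt and Mat1a rose, 4 of the 8 periportal markers were higher and 2 of the 7 hepatocyte markers lower. Of the 8 pericentral markers 3 were higher and 3 lower, 3 of the 7 endothelial and 2 of the 7 stellate markers were higher, and 3 red cell markers were lower. The summed hepatocyte markers were 1129000 to 1758000 in Pair vehicle and 996700 to 1136000 in EtOH vehicle. Alb made up most of these sums, with means of 1112000 ± 288500 and 853800 ± 48350 (SD, n = 4). Its log2 fold change of -0.35 did not pass (adjusted p = 0.543). The part of these changes in the ethanol results on Bhmt2, Sardh, Gnmt and Mat1a was not tested.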

How the data were processed

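Liver RNA sequencing of 16 mice was analysed from 1 gene table. The study's methods describe trimming (Trim Galore, FastQC), alignment to mm10 with STAR and upper-quantile normalization in edgeR; the counting tool is not given in the sources used here, and the labels and the methods differ on paired or single ends. As deposited by the authors, the signal values are counts of reads per gene that were scaled by 1 factor per library: expressed in units of 1 read, 100% of them lay within 0.01 of a whole number. In library 15 the value of 1 read is 1.01, so whole reads are less securely recovered there. The 27212 rows hold 24082 Ensembl IDs; 430 IDs with several symbols were used once.

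All 16 columns were rescaled by a median ratio over genes with reads in every library. Genes with at least 10 in at least 4 libraries (12537) were tested with limma 3.58.1 in R 4.3.3 on log2(value + 1), as 4 group means with a trend of the variance on the level; tests were two-sided, with a Benjamini-Hochberg adjustment over all genes tested (threshold 0.05). Fold changes are on the log2(value + 1) scale. Single genes were also compared by exact permutation tests (scipy 1.17.1). Script steps were tested on simulated data. In the 24 pairs of replicates the chi-square per gene was between 4.81 and 36.3, so within a group none was a copy of another; pairs across groups were not compared. Positions and lengths are from GENCODE vM21 on GRCm38; windows of 100 bases of each longest coding transcript were sought in the transcripts of other genes.

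The members, the wider list, the markers and the tests were chosen with earlier results of these data known. All 10 members are named; of the wider list, the 3 largest rises and the 3 largest falls that passed in each averaged contrast are given, and the difference between diets, with 2 genes, is the exception. Alternatives were pseudocounts of 0.1 and 5, no filter, a mean of at least 100, the deposited values, quantile normalization, no trend, only the libraries of a comparison, edgeR 4.0.16 (TMM and upper quartile) and DESeq2 1.42.0, both on whole reads, and leaving out 1 library at a time; edgeR without library 15 was added after seeing the data.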

Additional observations from a re-analysis of the deposited data

Results flagged for a closer look

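Library 8 of Pair IMC stood apart from the other 3 mice of its group as the highest value for 3 of the 10 genes. The gap to the nearest mouse was 0.866 of the group's range for Bhmt, 0.838 for Pemt and 0.833 for Gnmt, each above Dixon's 95% critical value for 4 samples. Of the 40 groups examined 3 passed this value, and chance passes about 1 in 20. The library was the highest of its group for 9 of the 10 genes and the lowest for Chdh. It had 9693199 reads on genes, within the range of the others, and its size factor of 0.7949 was the lowest of the 16.

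The effect of IMC on Dmgdh differed between the diets by -0.91 (log2, adjusted p = 0.0414), by a test of the difference itself. EtOH IMC and Pair vehicle carry library numbers 9 to 16 and the other 2 groups 1 to 8, so this difference cannot be told apart from one between the library numbers.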

How the results depend on the processing

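Of the log2 fold changes of the 10 genes over the 7 contrasts and all alternatives, 1818 stayed on their side of the threshold (38 of them, which did not pass, with another sign), 74 no longer passed, 38 newly passed and none that passed changed direction. The counts of members that passed were as follows where they moved by over 1.5 times. For IMC in pair-fed mice (1 gene) the count was 0 with no filter, quantile normalization, no trend, only the libraries of the comparison, and edgeR TMM with and without library 15. For the difference between diets (1) it was 0 with no filter, quantile normalization, no trend and edgeR without library 15, and 2 with DESeq2. For ethanol in vehicle mice (2) it was 5 on the deposited values and 1 with quantile normalization, for ethanol in IMC-treated mice (1) 4 and 2, and 2 with only its own libraries and 3 with DESeq2. For ethanol averaged (3) it was 6 on the deposited values, which carry the difference between diets in the median gene, and 1 with no filter, where more genes are tested. In the wider list, IMC in pair-fed mice (7) gave 13 with DESeq2, and the difference between diets (2) gave 1 with no trend and 5 with DESeq2. Otherwise the cause was not tested.

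With 1 library left out, the members that passed numbered 0 to 3 for IMC in pair-fed mice, 4 in ethanol-fed mice, 0 to 1 for the difference, 3 to 4 averaged, 1 to 2 for ethanol in vehicle mice, 1 to 4 in IMC-treated mice and 1 to 4 averaged. In the wider list the ranges were 5 to 15, 17 to 24, 1 to 3, 24 to 30, 10 to 14, 15 to 23 and 19 to 24 in the same order. No paired analysis was possible because the groups share no replicate numbers. Restricting the fit to the libraries of a comparison gave no value for the difference and the averaged contrasts, which need all 4 groups.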
